A study of Mus musculus with 4 samples.

Results

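Transcript levels are described for 9 genes whose enzymes shape the glycans on the cell surface: the sialyltransferase genes St8sia1, St8sia4, St8sia6, St3gal1, St3gal4, St3gal6 and St6gal1 and the Golgi mannosidase genes Man1a and Man1c1. They are 9 of the 19938 genes that had a probe set naming a single gene. The genes were picked by name, with earlier results of these arrays known and with the stage values of St8sia6 and Man1c1 among the reasons for the choice. Their values are therefore given as a description, with no test. St3gal1 had 2 probe sets and the brighter was used, while each of the other genes had 1.

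Most proteins on a T cell carry branched sugar chains that are built in the endoplasmic reticulum and the Golgi. Golgi mannosidases trim the chains attached to asparagine so that branches can be added, and sialyltransferases then cap the ends of the branches, of O-linked chains and of glycolipids with sialic acid. Sialic acid caps change during thymocyte maturation, and they set which lectins, such as galectins, selectins and siglecs, can bind the cell.

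CD4+ CD8- thymocytes from C57BL/6n mice aged 8 weeks were measured in 4 groups, each on 1 Affymetrix Mouse Gene 1.0 ST array. They were CD69- Qa2+ and CD69+ Qa2- cells from a pool of 4 mice without the microRNA gene Mir142 (miR-142-/-; 1 female and 3 males), and CD69- Qa2+ and CD69+ Qa2- cells from a pool of 5 wild-type mice (WT, miR-142+/+; 3 females and 2 males). CD69- Qa2+ cells are the more mature and CD69+ Qa2- cells the less mature CD4 single-positive thymocytes. All cells had passed depletion of CD8+ cells on magnetic beads before the sort. For the miR-142-/- Qa2- group, one label field speaks of Qa2+ cells, against the title and the sorting entry, which were followed.

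The targeted gene matched the labels. Mir142 read log2 4.88 and 5.29 in the miR-142-/- Qa2+ and Qa2- cells, below a background threshold of 5.86, and 9.41 and 10.11 in the WT Qa2+ and Qa2- cells. Of the gate's own markers, Cd4 was bright throughout (12.36 to 12.64), and Cd69 read 10.55 and 11.51 in miR-142-/- Qa2+ and Qa2- cells and 10.55 and 11.32 in WT Qa2+ and Qa2- cells. Transcripts of CD8, against which the cells were depleted and gated, were above the threshold on every array: Cd8a spanned 7.25 to 7.53, and Cd8b1 read 8.75 and 9.24 in miR-142-/- Qa2+ and Qa2- cells and 9.98 and 9.97 in WT Qa2+ and Qa2- cells. Sex-linked transcripts did not match pools of both sexes: Xist lay between 4.83 and 5.06 in miR-142-/- and between 12.14 and 12.67 in WT cells, and 3 Y-linked genes (Eif2s3y, Kdm5d, Uty) spanned 9.72 to 10.58 in miR-142-/- and 4.29 to 5.09 in WT cells. Genotype and these transcripts cannot be told apart in any comparison of miR-142-/- with WT. The 9 enzyme genes all lie on autosomes.

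The microRNA missing from the miR-142-/- mice is processed into a pair of mature strands, shown here because the genotypes are defined by their gene. The sequences are from RefSeq (GRCm38.p6, plus strand), written 5′ to 3′ with the seed, bases 2 to 8, in capitals. The 5p strand lies at chr11:87756867-87756887 and the 3p strand at chr11:87756903-87756925.
mmu-miR-142a-5p: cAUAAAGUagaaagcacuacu
mmu-miR-142a-3p: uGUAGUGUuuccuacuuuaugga

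The 2 genes with the largest stage differences among the 9, St8sia6 and Man1c1, are shown next with the 250 bases before their annotated starts, since the pair moved together across the arrays. The sequences are from RefSeq (GRCm38.p6, minus strand, written 5′ to 3′ along the gene), with CG dinucleotides in capitals. The window of St8sia6 is chr2:13793521-13793770, inside the annotated span of the gene, and that of Man1c1 is chr4:134704291-134704540.
St8sia6: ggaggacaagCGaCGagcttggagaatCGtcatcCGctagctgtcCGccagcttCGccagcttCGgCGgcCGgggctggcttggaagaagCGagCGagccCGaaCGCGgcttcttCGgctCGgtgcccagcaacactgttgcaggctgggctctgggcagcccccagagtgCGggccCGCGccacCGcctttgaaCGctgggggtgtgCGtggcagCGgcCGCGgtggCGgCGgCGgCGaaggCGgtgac
Man1c1: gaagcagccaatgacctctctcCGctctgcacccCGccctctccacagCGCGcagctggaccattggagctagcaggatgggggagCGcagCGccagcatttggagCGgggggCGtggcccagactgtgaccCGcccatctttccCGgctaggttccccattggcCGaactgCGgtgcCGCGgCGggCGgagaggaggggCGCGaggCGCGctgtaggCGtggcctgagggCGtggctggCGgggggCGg

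Both windows were rich in CG dinucleotides, with 30 in St8sia6 and 24 in Man1c1 against a median of 6 over 32851 mouse promoter windows of the same length. G and C made up 70.8% of the St8sia6 window and 71.6% of the Man1c1 window, against a median of 52.4%. This richness was not particular to the pair. Man1a held 31 CG dinucleotides with 72.4% G and C, and St3gal4 held 25 with 72.8%, though both differed less by stage. St8sia4 held 19 and St8sia1 14, the 2 windows of St3gal6 held 1 and 16, and the 3 windows of St6gal1 held 6, 10 and 5. Of 6 motifs searched on both strands, Man1c1 held 3 matches to CCAAT, which 33.8% of all windows held, and 4 matches to GGGCGG, which 32.7% held. The windows of St8sia1, St8sia4 and Man1a also held matches to both, and St8sia6 held neither. The letters searched for the TATA box (TATAAA, in 12.4% of all windows) were absent from the St8sia6 and Man1c1 windows. So were those for the CACCC box bound by Kruppel-like factors (CCACCC, in 28.1%). Those searched for the RUNX core (TGTGGT, in 14%) and the FoxO core (GTAAACA, in 3.17%) were also absent. Only these exact letters were searched. The shorter CACCC, which each printed sequence holds when both strands are read, and other variants were not counted. Overlaps between motifs were counted for each. Windows were found for 8 of the 9 genes.

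St8sia6 stood apart by stage. Its product adds sialic acid to sialic acid that is already in place, mainly on O-linked chains. St8sia6 read log2 10.10 in Qa2+ and 8.53 in Qa2- cells of miR-142-/- mice, and 10.69 in Qa2+ and 9.06 in Qa2- cells of WT mice. Both Qa2+ arrays were above both Qa2- arrays, an order whose share among all genes was not counted. Qa2+ cells were 2.96-fold above Qa2- cells in miR-142-/- and 3.09-fold in WT, log2 differences of 1.57 and 1.63, which is the percentile 99.8 and 99.9 of the differences of all 12593 genes above background.

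Man1c1 followed nearly the same course. Its product is a Golgi mannosidase that removes mannose from asparagine-linked chains before they branch. Man1c1 read log2 8.68 in Qa2+ and 7.15 in Qa2- cells of miR-142-/- mice, and 9.29 in Qa2+ and 7.82 in Qa2- cells of WT mice. The Qa2+ arrays again lay above both Qa2- arrays. The stage fold was 2.89 in miR-142-/- and 2.77 in WT, log2 differences of 1.53 and 1.47, both at percentile 99.8. In these bulk samples, a larger share of cells with a transcript and more transcript per cell cannot be told apart.

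**Figure D1:**
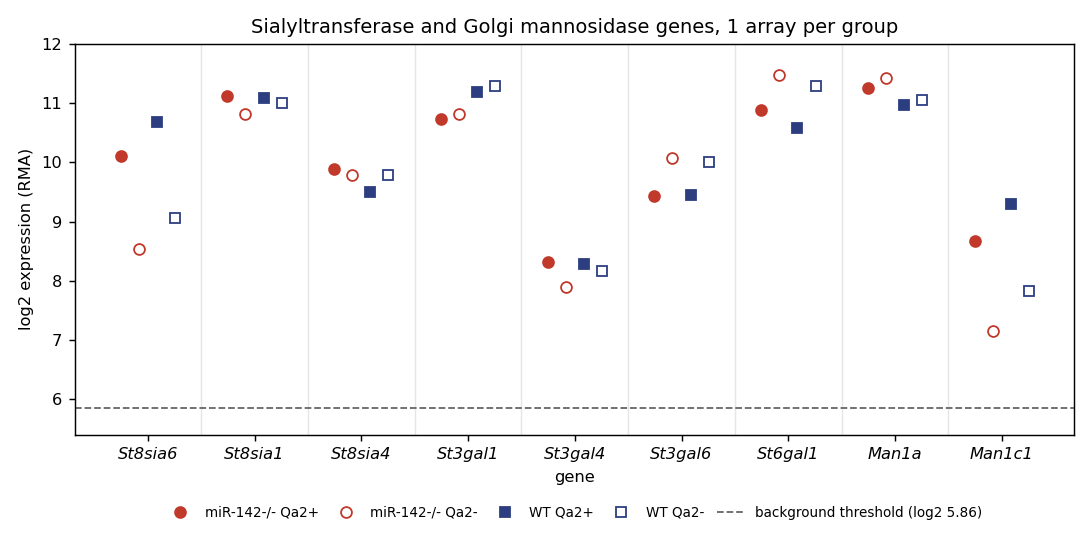
Log2 expression of each of the 9 genes on the 4 arrays (1 point per array, red circles miR-142-/-, blue squares WT, filled Qa2+, open Qa2-), with the background threshold of log2 5.86 as a dashed line. St8sia6 and Man1c1 lie higher in Qa2+ than in Qa2- cells of both genotypes, and St3gal6 and St6gal1 lie lower. Levels of different genes come from different probes and are not comparable.

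St6gal1 and St3gal6 went the other way. St6gal1 encodes the main enzyme that caps asparagine-linked chains with sialic acid in the linkage read by the B cell lectin CD22. It read log2 10.88 in Qa2+ and 11.47 in Qa2- cells of miR-142-/- mice, and 10.58 in Qa2+ and 11.29 in Qa2- cells of WT mice. The Qa2+ arrays were lower by 1.5-fold in miR-142-/- and 1.63-fold in WT (log2 differences of -0.59 and -0.71).

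St3gal6 encodes an enzyme that caps lactosamine ends, including those of selectin ligands. It read log2 9.43 in Qa2+ and 10.08 in Qa2- cells of miR-142-/- mice, and 9.45 in Qa2+ and 10.01 in Qa2- cells of WT mice. The genotypes nearly coincided at each stage, and the Qa2+ arrays were lower by 1.57-fold in miR-142-/- and 1.48-fold in WT (log2 differences of -0.65 and -0.57). Both St6gal1 and St3gal6 were among the lowest 5% of all genes by stage difference in each genotype, with percentiles between 2.2 and 4.0.

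The other genes differed less by stage. St3gal4, a relative of St3gal6 that also caps lactosamine ends, read log2 8.32 in Qa2+ and 7.90 in Qa2- cells of miR-142-/- mice, and 8.28 in Qa2+ and 8.17 in Qa2- cells of WT mice. The difference was 0.41 in miR-142-/- and 0.12 in WT, and the miR-142-/- Qa2- array was the low one. St8sia1 makes the disialylated ganglioside GD3. It read log2 11.12 in Qa2+ and 10.81 in Qa2- cells of miR-142-/- mice and 11.09 in Qa2+ and 11.01 in Qa2- cells of WT mice, so that the miR-142-/- Qa2- array was again the lowest. The stage difference of St8sia1 was 0.31 in miR-142-/- and 0.07 in WT.

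St8sia4 encodes a polysialyltransferase, which builds long chains of sialic acid. It read log2 9.89 in Qa2+ and 9.78 in Qa2- cells of miR-142-/- mice, and 9.50 in Qa2+ and 9.79 in Qa2- cells of WT mice. The WT Qa2+ array was lower than the other arrays, which lay within 0.12 of each other. The stage difference was 0.12 in miR-142-/- and -0.29 in WT, and the difference between these was not tested.

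St3gal1, which caps the galactose of mucin-type O-linked chains, and Man1a, a Golgi mannosidase of the same class as Man1c1, differed little by stage. St3gal1 read log2 10.73 in Qa2+ and 10.81 in Qa2- cells of miR-142-/- mice, and 11.19 in Qa2+ and 11.29 in Qa2- cells of WT mice. Man1a read log2 11.26 in Qa2+ and 11.42 in Qa2- cells of miR-142-/- mice, and 10.97 in Qa2+ and 11.06 in Qa2- cells of WT mice. Their stage differences were -0.08 and -0.17 in miR-142-/- and -0.10 and -0.09 in WT; after median centring of the arrays the WT values were 0.00 for St3gal1 and 0.02 for Man1a. At each stage St3gal1 read lower and Man1a higher in miR-142-/- than in WT cells, with no replicate check.

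In miR-142-/- mice, 2 of the 9 genes stood at least 1.5-fold above and 2 at least 1.5-fold below their Qa2- level in Qa2+ cells, where 2.65% and 3.64% of all genes above background passed the same limits. In WT mice 2 stood above and 1 below, where 2.69% and 3.69% of all genes passed. The 2 below in miR-142-/- were St6gal1 and St3gal6, both close to the limit. After median centring they differed by -0.52 and -0.58, short of 1.5-fold. After quantile normalization St6gal1, at -0.55, was short of it and St3gal6, at -0.61, was not. The 2 above were St8sia6 and Man1c1 in each genotype. They were chosen with these rises known, so setting the counts beside the shares is not a test. The scatter of dim probe sets gives a scale for such values. Over 1196 olfactory and vomeronasal receptor genes, which are not expected in thymocytes, the standard deviation of the stage difference was 0.21 in miR-142-/- and 0.22 in WT. It is a measure of array scatter at dim probe sets, not of variation among mice. The median stage difference of all genes above background was -0.06 in each genotype as deposited, and 0.01 in miR-142-/- and 0.04 in WT after median centring.

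By genotype, St8sia6, Man1c1 and St3gal1 read lower in miR-142-/- than in WT cells at both stages as deposited. Their differences lay between percentiles 2.8 and 7.3 of those of all genes above background. St8sia6 differed by -0.59 in Qa2+ and -0.53 in Qa2- cells, which is 1.51-fold and 1.44-fold lower in miR-142-/-. Man1c1 differed by -0.61 and -0.67, or 1.53-fold and 1.60-fold lower. St3gal1 differed by -0.46 and -0.48, or 1.38-fold and 1.40-fold lower. The second, dimmer probe set of St3gal1 differed by -0.18 in Qa2+ and -0.09 in Qa2- cells, so the probe sets agree in sign and not in size.

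Man1a and St6gal1 read higher in miR-142-/- cells at both stages. Man1a differed by 0.28 in Qa2+ and 0.37 in Qa2- cells, and St6gal1 by 0.30 and 0.18. The close relative of Man1a, Man1a2, differed by 0.40 in Qa2+ and 0.21 in Qa2- cells, and probes for the pair may pick up each other's transcript. St8sia4 differed by 0.39 in Qa2+ and -0.02 in Qa2- cells, the second of which turned to 0.01 after quantile normalization. St8sia1 differed by 0.03 and -0.20 and St3gal4 by 0.03 and -0.26, and their values in Qa2+ cells were both -0.03 after median centring. St3gal6 hardly differed, by -0.02 in Qa2+ and 0.06 in Qa2- cells.

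Between the Qa2+ groups, 0 of the 9 genes stood at least 1.5-fold above and 2 (St8sia6 and Man1c1) at least 1.5-fold below WT, where 4.56% and 4.88% of all genes passed. In Qa2- cells 0 stood above and 1 (Man1c1) below, where 3.10% and 3.74% passed. For receptor genes the genotype difference had a standard deviation of 0.18 in Qa2+ and of 0.15 in Qa2- cells. With 1 array per group, no genotype difference has a replicate check.

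**Figure D2:**
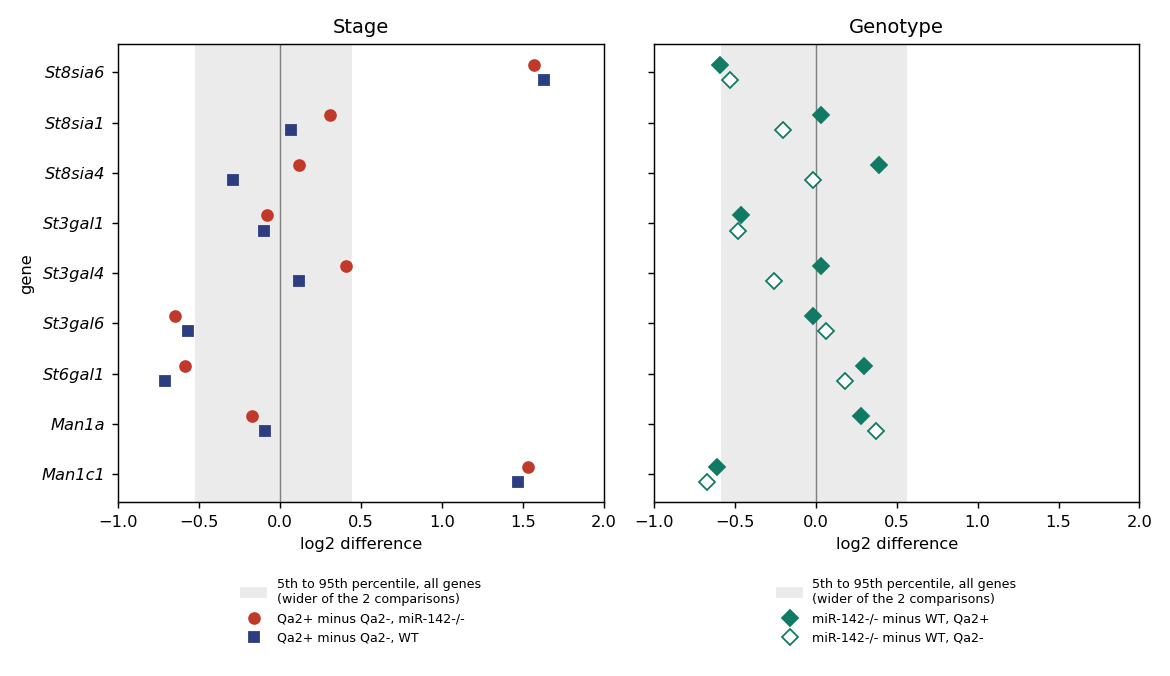
Log2 differences of the 9 genes by stage (left, Qa2+ minus Qa2- within miR-142-/- and within WT) and by genotype (right, miR-142-/- minus WT within Qa2+ and within Qa2- cells), 1 point per comparison, with the 5th to 95th percentile of all 12593 genes shaded. St8sia6 and Man1c1 lie far to the right by stage and near -0.6 by genotype, and St3gal6 and St6gal1 lie left of the shaded range by stage.

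The stage difference of St8sia6 and Man1c1 was nearly equal in the genotypes, although the levels were not. The difference in miR-142-/- minus that in WT was -0.06 for St8sia6 and 0.06 for Man1c1. The size of this value was also at most 0.12 for St3gal1, St3gal6, St6gal1 and Man1a. It was 0.23 for St8sia1, 0.30 for St3gal4 and 0.41 for St8sia4. None of these differences could be tested, since the 4 arrays leave no degrees of freedom for them.

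St8sia6 and Man1c1 were each other's closest match across the arrays. After subtracting each gene's mean over the 4 arrays, the Euclidean distance between their profiles was 0.14, and 0 of 12015 other genes searched were closer to either. The next closest to St8sia6 were Tmem71 (distance 0.21), S1pr4, a receptor for the lipid sphingosine-1-phosphate (0.22), and Smad7, an inhibitor of TGF-beta signalling (0.27). The same genes came next for Man1c1, with Smad7 at 0.21 and S1pr4 and Tmem71 at 0.23. Smad7, for one, differed by stage by 1.45 in miR-142-/- and 1.28 in WT, and by genotype by -0.41 in Qa2+ and -0.58 in Qa2- cells. The pair was chosen with both stage rises known, and the stage step is the larger part of either profile. Its closeness is therefore not an independent result, and likeness over 4 arrays is a description of these arrays.

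**Figure D3:**
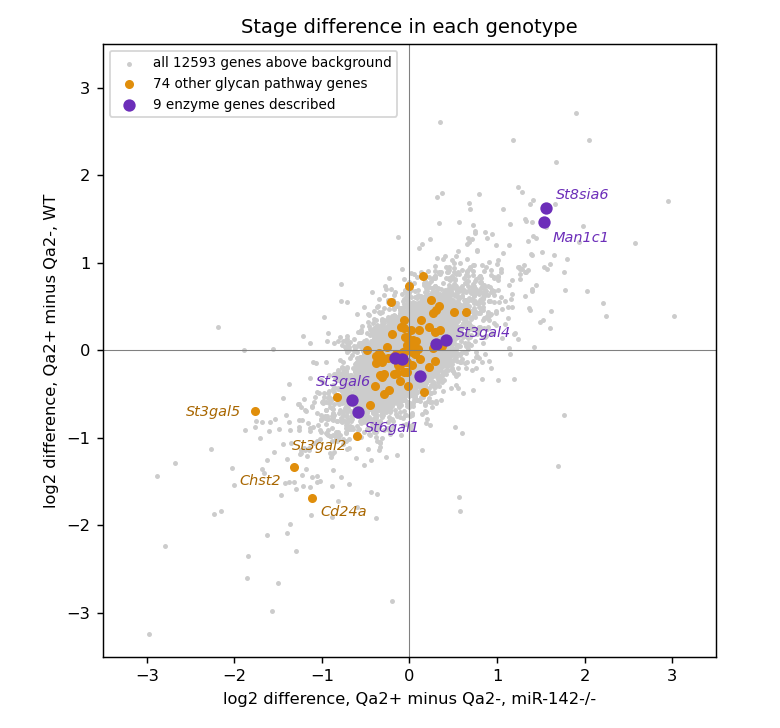
Stage difference (log2, Qa2+ minus Qa2-) in miR-142-/- on the horizontal and in WT on the vertical axis, with 1 point per gene above background (grey), the 74 other glycan pathway genes in orange and the 9 enzyme genes in purple. St8sia6 and Man1c1 lie together at about 1.5 on both axes, while Chst2, Cd24a, St3gal2 and St3gal5 lie low on both.

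Markers of other cells were read beside these values. Of 8 double-positive thymocyte markers measured, 6 were higher in Qa2+ than in Qa2- cells of miR-142-/- mice and 7 in WT, 5 and 6 of them at least 1.5-fold. Their summed linear signal was 2614 in Qa2+ and 1696 in Qa2- cells of miR-142-/- mice, and 2771 in Qa2+ and 1781 in Qa2- cells of WT mice. The defining recombinase gene Rag1 read 8.02 in Qa2+ and 6.11 in Qa2- cells of miR-142-/- mice. In WT mice Rag1 read 8.63 in Qa2+ and 5.92 in Qa2- cells. Rag2, also among those counted, was below background by its mean. It was 1.79-fold higher in Qa2+ cells in miR-142-/- and 1.9-fold in WT. Cd8a differed by stage by -0.08 in miR-142-/- and -0.06 in WT. These markers move with St8sia6 and Man1c1 by stage, and their part in the result was not tested. The 6 regulatory T cell markers were divided: 4 were higher in Qa2+ cells of miR-142-/- mice and 3 in those of WT mice, and 2 were higher in miR-142-/- than in WT among Qa2+ cells and 4 among Qa2- cells. Foxp3, which defines these cells, read log2 8.69 in Qa2+ and 7.01 in Qa2- cells of miR-142-/- mice, and 10.36 in Qa2+ and 8.21 in Qa2- cells of WT mice, the same order of arrays as St8sia6 and Man1c1 by stage and by genotype. Ctla4, an inhibitory receptor gene, read 6.64 and 6.07 in miR-142-/- Qa2+ and Qa2- cells and 9.29 and 8.69 in WT Qa2+ and Qa2- cells. Other genes of the list went the other way. Gpr83 was 2.42-fold higher in miR-142-/- than in WT among Qa2+ cells and 2.04-fold among Qa2- cells. By stage, Ikzf2 differed by -0.67 in miR-142-/- and -0.53 in WT, and Tnfrsf18 by -0.65 and -0.20. The summed linear signal of the list was 8152 in Qa2+ and 8730 in Qa2- cells of miR-142-/- mice, and 8118 in Qa2+ and 7185 in Qa2- cells of WT mice. The part of regulatory T cells in the stage and genotype values was not tested. Of the B cell markers, 6 of 7 were below background, among them Cd79a, Ms4a1 and Pax5, and only Cd79b was above it.

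Beside the genotype differences, markers of innate-like T cells read lower in miR-142-/- at both stages. Of 6 markers, 6 were lower in Qa2+ and 6 in Qa2- cells, 4 and 6 of them at least 1.5-fold, and their summed linear signal was 1357 in miR-142-/- and 2999 in WT Qa2+ cells, and 1141 in miR-142-/- and 3738 in WT Qa2- cells. The 6 CD8 single-positive markers, which share Nkg7 with the innate-like list and Cd8a and Cd8b1 with the double-positive list, were mixed: 2 read higher in miR-142-/- at each stage, among them Eomes, 1.59-fold higher in Qa2- cells, while 2 were lower by 1.5-fold or more in the Qa2+ comparison and 3 in the Qa2- comparison. Their summed signal was 1975 in miR-142-/- and 2872 in WT Qa2+ cells, and 1990 in miR-142-/- and 3762 in WT Qa2- cells. The part of these cells in the lower St8sia6, Man1c1 and St3gal1 values was not tested.

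The remaining glycan genes were taken from 7 lists, of which 74 genes were above background. Their stage difference averaged over the genotypes was tested across all 12593 genes with limma, with genotype as a block, 2 pairs of arrays and 1 residual degree of freedom. At a Benjamini-Hochberg adjusted p under 0.05, 4 of the 74 genes rose and 8 fell in Qa2+ cells (5.41% and 10.8%), against 4.76% and 8.31% of all genes. These shares are near those of all genes. Of all calls 36.4% were higher in Qa2+ cells as deposited, 59.9% after median centring and 56.1% after quantile normalization, and over the 74 genes these scalings gave 8 risen and 6 fallen each. Without the genotype block no gene passed, with 1544 of all genes and 11 of the 74 at an unadjusted p under 0.05. Of receptor genes, 6.27% passed the limma test when no background filter was used, against 12.6% of other genes. A call is therefore proof neither of expression nor of a stage change. The p-values measure the spread between 2 pairs of pooled samples and not between mice.

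Among the other sialyltransferases, 3 of 8 genes above background fell and 0 rose, where 8.31% of all genes fell and 4.76% rose. The 3 that fell were St3gal2, St3gal3 and St3gal5; of their relatives given above, St3gal6 was lower in Qa2+ cells of both genotypes, St3gal1 differed by -0.08 in miR-142-/- and -0.10 in WT, and St3gal4 was higher by 0.41 and 0.12. St3gal2, which caps O-linked chains and gangliosides, read log2 9.02 in Qa2+ and 9.61 in Qa2- cells of miR-142-/- mice, and 8.18 in Qa2+ and 9.15 in Qa2- cells of WT mice. St3gal2 fell by 0.79 ± 0.12 on the log2 scale (SE from 2 pairs of arrays; limma, adjusted p = 0.0065, Benjamini-Hochberg). St3gal3, which caps asparagine-linked chains, fell by 0.68 ± 0.11 (limma, adjusted p = 0.0084). St3gal5, which makes the ganglioside GM3 that feeds St8sia1, fell by 1.23 ± 0.22 (limma, adjusted p = 0.011), with differences of -1.77 in miR-142-/-, where the Qa2+ array at 5.85 was below the threshold, and -0.69 in WT. All 3 calls also passed under median centring, quantile normalization, no background filter and an intensity trend, and none passed without the genotype block. St6galnac4 differed by 0.03 in miR-142-/- and 0.05 in WT, and 5 of the 13 listed genes were below background, including the polysialyltransferase gene St8sia2. The list's median averaged stage difference was -0.18, against -0.06 for all genes.

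Of 11 other genes for trimming glucosidases and mannosidases, 1 fell and 0 rose, where 8.31% of all genes fell and 4.76% rose. Man2a1, a Golgi mannosidase that acts after the class of Man1a and Man1c1, fell by 0.39 ± 0.10 (limma, adjusted p = 0.048), a call that ended under median centring (adjusted p = 0.088) and quantile normalization (adjusted p = 0.065). Prkcsh, a glucosidase subunit gene, differed by -0.34 in miR-142-/- and -0.28 in WT (limma, adjusted p = 0.079). The list's median was -0.14.

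Of 10 genes for sialic acid supply and removal, 1 rose and 1 fell, where 4.76% of all genes rose and 8.31% fell. Neu1, the lysosomal sialidase gene, read log2 8.57 in Qa2+ and 8.07 in Qa2- cells of miR-142-/- mice, and 8.69 in Qa2+ and 8.25 in Qa2- cells of WT mice, and rose by 0.47 ± 0.10 (limma, adjusted p = 0.021). Slc35a1, the Golgi transporter of activated sialic acid, fell by 0.54 ± 0.10 (limma, adjusted p = 0.015). Both genotypes moved the same way in each case.

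Of 15 genes for branching and extension of asparagine-linked chains, 0 rose and 0 fell (limma adjusted p), where 4.76% of all genes rose and 8.31% fell. The galactosyltransferase genes B4galt1 and B4galt5 differed on average by 0.35 and 0.41 (limma, adjusted p = 0.062 and 0.051), and both passed after either scaling. B4galt4 differed by -0.31 in miR-142-/- and -0.30 in WT.

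Of 12 O-glycan genes above background, 2 fell and 0 rose, where 8.31% of all genes fell and 4.76% rose. Chst2, a sulfotransferase gene of selectin ligands, read log2 6.78 in Qa2+ and 8.09 in Qa2- cells of miR-142-/- mice, and 7.48 in Qa2+ and 8.81 in Qa2- cells of WT mice. Chst2 fell by 1.32 ± 0.10 (limma, adjusted p = 0.00047). C1galt1c1, an X-linked gene for the chaperone of the main O-glycan galactosyltransferase, fell by 0.40 ± 0.10 (limma, adjusted p = 0.035; 0.067 after median centring and 0.068 after quantile normalization). Gcnt1, which branches O-linked chains, was among 8 of the 20 listed genes below background. Of 7 ganglioside genes above background, the 2 that fell were St3gal5 and St3gal2, both counted above, beside the same 8.31% of all genes.

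Among 15 genes for carriers of these glycans and for lectins, 3 rose and 1 fell (20.0% and 6.67%, against 4.76% and 8.31% of all genes). The surface glycoprotein genes Spn (CD43), Selplg (the P-selectin ligand) and Thy1 rose by 0.38 ± 0.10, 0.42 ± 0.10 and 0.54 ± 0.10 (limma, adjusted p = 0.048, 0.036 and 0.016). Cd24a, a small glycosylated surface protein gene and known marker of immature thymocytes, fell by 1.40 ± 0.14 (limma, adjusted p = 0.0016). Lgals1, a galectin gene, differed by 0.16 in miR-142-/- and 0.85 in WT (limma, adjusted p = 0.073).

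By genotype, 4 of the 74 genes in the Qa2+ comparison stood 1.5-fold or more above WT and 8 stood 1.5-fold or more below it (5.41% and 10.8%, against 4.56% and 4.88% of all genes), and in the Qa2- comparison 4 stood above and 6 below (5.41% and 8.11%, against 3.10% and 3.74%). B3gnt3, which extends O-linked chains, read log2 8.73 in miR-142-/- and 7.49 in WT Qa2+ cells, and 8.38 in miR-142-/- and 7.26 in WT Qa2- cells, 2.36-fold and 2.18-fold higher. Galnt4, which starts O-linked chains, differed by 0.92 in Qa2+ and 0.51 in Qa2- cells, and St3gal2 by 0.84 and 0.46. Edem3, of glycoprotein quality control, differed by 0.54 and 0.51, the sialidase gene Neu3 by 0.35 and 0.61, and Slc35a3, a Golgi sugar transporter gene, by 0.32 and 0.45.

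Lower in miR-142-/- at both stages were Lgals1 (-2.16 in Qa2+ and -1.46 in Qa2- cells), B4galt5 (-1.02 and -0.70), the hyaluronan receptor gene Cd44 (-0.81 and -1.03), Spn (-0.90 and -0.73) and Chst2 (-0.71 and -0.71). The CD8 chain gene Cd8b1, counted here among the carriers, differed by -1.23 and -0.73. B3galt4, a galactosyltransferase gene of gangliosides, differed by -1.15 and -0.39 and Man2a2, a relative of Man2a1, by -0.72 and -0.40. Cmas, which activates sialic acid, differed by -0.41 and -0.38, and St6galnac4, which acts on O-linked chains already sialylated, by -0.37 and -0.35. None of these values has a replicate check, and the genotypes also differ in the innate-like T cell markers given above.

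**Figure D4:**
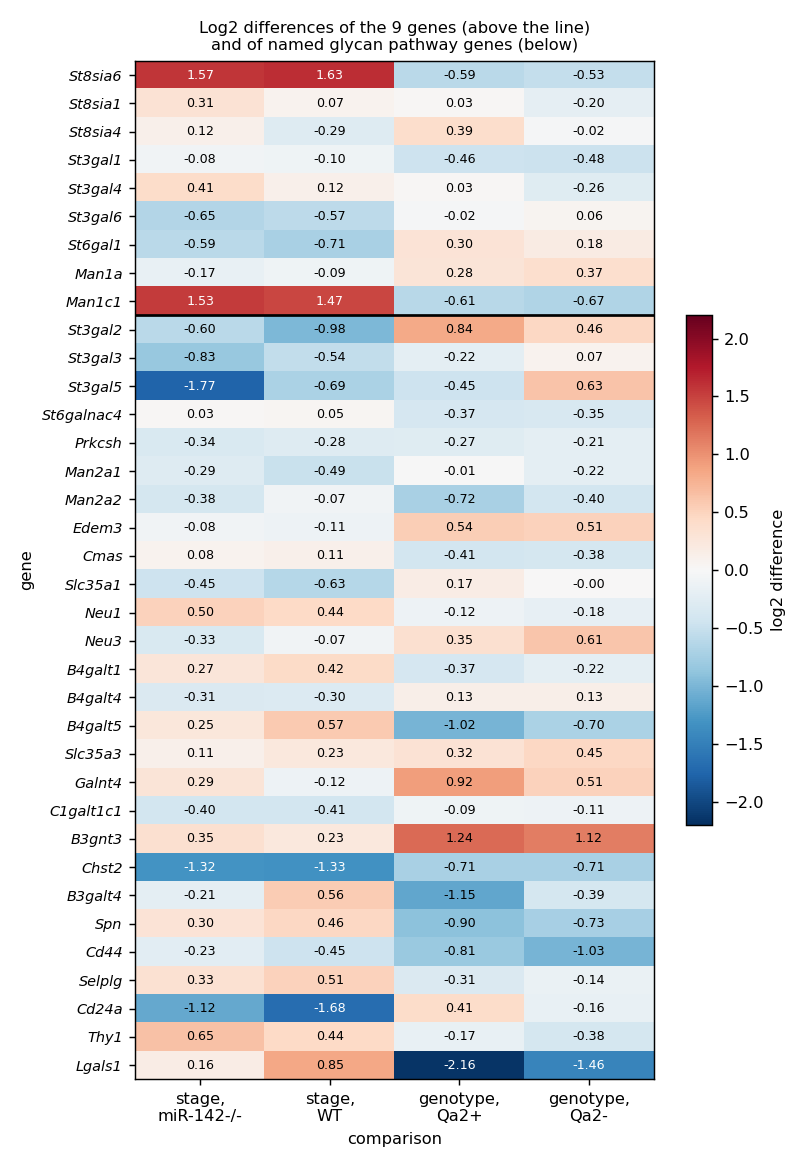
Log2 differences of the 9 enzyme genes (above the black line) and of the named glycan pathway genes (below it) in 4 comparisons: stage (Qa2+ minus Qa2-) in miR-142-/- and in WT, and genotype (miR-142-/- minus WT) in Qa2+ and in Qa2- cells. Colour runs from blue (lower) to red (higher), and the printed numbers are the differences. St8sia6 and Man1c1 are red by stage and light blue by genotype, and Chst2 is blue in all 4 columns.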

How the data were processed

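RNA of 4 sorted samples was hybridised to 1 array each. The authors deposited 1 log2 value per probe set and array; RMA and Partek are named, without versions, in the submitters' processing notes. RMA's background step tends to shrink differences of dim probe sets, and its normalization can remove a shift common to the whole transcriptome; the deposited array medians still spanned 6.61 to 6.74. Of 35557 probe sets, 21789 named 1 gene in the platform annotation, 1621 named several and 12147 none. Symbols were updated by Entrez ID for 21698. Each gene took its brightest probe set by mean. The background threshold of log2 5.86 was the 95th percentile of these means over 1196 receptor genes, and 12593 genes exceeded it. Differences are miR-142-/- minus WT and Qa2+ minus Qa2-. The averaged stage difference went through a two-sided limma test (limma 3.58.1 in R 4.3.3; prior of 6.93 degrees of freedom). Its errors rest mainly on that prior, since 1 residual degree of freedom is left. Precision is limited by the number of arrays, whose pairwise correlations spanned 0.982 to 0.991.

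The genes described and the gene lists were chosen with earlier results of these data known. From each list the text names up to 4 genes with the largest difference shared by both stages or both genotypes, and all that passed limma. A few others (Man1a2, St8sia2, Gcnt1 and, among the carriers, Cd8b1) were named outside that rule. A few listed genes were not analysed here. Alternatives were median centring, quantile normalization, all probe sets of a gene, other background filters, an intensity trend and no genotype block.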

Additional observations from a re-analysis of the deposited data

Results flagged for a closer look

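Listed here are genes whose same contrast, with 1 array per group, ran in opposite directions in the 2 genotypes or the 2 populations. They are drawn from the 9 enzyme genes and the glycan genes named by the rule above. Genes named outside that rule are left out. So is Slc35a1, which differed by genotype by 0.17 in Qa2+ and hardly at all in Qa2- cells. None of these contrasts between groups was tested, and several values are within the scatter of dim probe sets. By stage, St8sia4 differed by 0.12 in miR-142-/- and -0.29 in WT, Galnt4 by 0.29 and -0.12, and B3galt4 by -0.21 and 0.56. By genotype, St8sia4 differed by 0.39 in Qa2+ and -0.02 in Qa2- cells, St8sia1 by 0.03 and -0.20, St3gal4 by 0.03 and -0.26, and St3gal6 by -0.02 and 0.06. Among the other glycan genes, St3gal5 differed by genotype by -0.45 in Qa2+ and 0.63 in Qa2- cells, Cd24a by 0.41 and -0.16, and St3gal3 by -0.22 and 0.07.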

How the results depend on the processing

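Of 76 recomputed differences of the 9 enzyme genes, 75 moved by less than the receptor-gene standard deviation. The exception was St3gal1 in Qa2- cells by genotype, which was -0.29 as the mean of both its probe sets. No difference of at least 1.5-fold changed sign under these alternatives. By stage in miR-142-/-, St6gal1 and St3gal6 no longer reached 1.5-fold after median centring, nor St6gal1 after quantile normalization. Of 84 recomputed counts, 67 stayed within 1.5 times. In the limma stage test, genes passing as higher numbered 1073 after median centring and 977 after quantile normalization, and those lower 1593 without a background filter. Without the genotype block 0 genes passed in either direction, among all genes and among the glycan genes, because the genotype differences then enter the residual. Of the glycan genes, 8 passed as higher after either scaling and 7 with an intensity trend. At 1.5-fold in WT by stage, median centring gave 526 higher and 296 lower of all genes, and quantile normalization 309 lower. The glycan genes higher in WT by stage were 5 after median centring and 4 after quantile normalization, and 3 were lower after the second. In miR-142-/- by stage 3 were higher without a background filter. The stage test is already paired by pool through the genotype block. Beyond that, the labels give no replicate numbers, and no array could be left out because each group has 1.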
